A study of Mus musculus with 4 samples.

Results

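Expression of 10 genes of the Erk signalling pathway was followed in bulk RNA from 4 mouse lung tumours. They are the phosphatase genes Dusp4, Dusp5 and Dusp6, the Sprouty genes Spry1, Spry2 and Spry4, the Sprouty-related genes Spred1 and Spred2, and the transcription factor genes Etv4 and Fosl1. They were taken from the count table by symbol, and 10 of 10 were found among its 39017 genes. All 10 had a mean normalised read count of at least 1 CPM (counts per 1000000 counts) and so passed the filter on low values.

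The tumours came from C57BL/6 male KP mice, which carry 1 conditional K-ras allele that Cre switches on and 2 floxed p53 alleles. By label the mice are also heterozygous fl/wt for a gene that is not named. The methods let controls carry 1 floxed Slc2a1 allele or none, and column names of the deposited log2 values read WT. By label each mouse received 1500 viral units of a lentivirus into the trachea, whereas the methods give higher doses for this kind of vector. The Cre of the lentivirus is driven by the PGK promoter, which does not restrict Cre to 1 cell type. Tumours were macrodissected at 22 weeks and 5 days after initiation and dissociated to single cells, and polyadenylated RNA of the whole suspension was sequenced. All 4 tumours formed 1 group of controls, so no treatment or genotype could be compared. The labels number the tumours 1 to 4 and do not say whether they came from 4 mice, so they may not be independent of each other. Each tumour had 1 library, so the spread between them may be in part technical.

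Erk is the last kinase of the cascade that runs from growth factor receptors through Ras, Raf and Mek. Active Erk switches on genes whose products act back on the cascade, and these feedback genes are widely used as a transcript readout of Erk output. The Dusp proteins remove phosphates from Erk, Dusp6 in the cytoplasm and Dusp4 and Dusp5 in the nucleus. Sprouty and Spred proteins act further upstream, on the step from receptor to Ras and Raf, and Spred proteins bring the Ras inactivator neurofibromin to the membrane. Etv4 is a transcription factor of the Ets family, and Fosl1 encodes Fra-1, a subunit of AP-1.

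Total counts were between 8151613 and 8799007 per tumour. At this depth 3 counts, the upper limit that a count of 0 allows, were worth 0.330 to 0.370 CPM. Alveolar type 2 genes were abundant in every tumour, with a summed CPM of the 8 markers between 32709 and 60579. Markers of leukocytes were detected too, and tumour 3 had the highest level of 4 of 4 pan-leukocyte markers. Tumour 1 stood apart with the highest Krt8 and Krt18. RNA was measured in bulk, so fewer cells of a type and less RNA per cell cannot be told apart in any value given here.

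The genes lie on separate chromosomes apart from 2 pairs. Coordinates are those of GRCm38. Dusp4 (ENSMUSG00000031530) lies at chr8:34807297-34819894, Dusp5 (ENSMUSG00000034765) at chr19:53529109-53542431 and Dusp6 (ENSMUSG00000019960) at chr10:99263231-99267489, all on the plus strand. Spry1 (ENSMUSG00000037211) lies on the plus strand at chr3:37639947-37644598, Spry2 (ENSMUSG00000022114) on the minus strand at chr14:105891947-105896819 and Spry4 (ENSMUSG00000024427) on the minus strand of chromosome 18. Spred1 (ENSMUSG00000027351) lies at chr2:117121374-117182279 and Spred2 (ENSMUSG00000045671) at chr11:19924375-20024026, both on the plus strand. Etv4 (ENSMUSG00000017724) is on the minus strand of the same chromosome as Spred2, at chr11:101769742-101785371, and Fosl1 (ENSMUSG00000024912) is on the plus strand of the same chromosome as Dusp5, at chr19:5447547-5455946. All 10 are protein coding. Counts are over exons, whose summed length ran from 2033 nt in Fosl1 to 6784 nt in Spred1.

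Genes that share exon sequence with another gene on the opposite strand carry an uncertain count where the counting ignored strand, and the strand setting was not given in the sources used here. Fosl1 shares 1163 of its 2033 exon bases with Ccdc85b, which had 2, 2, 0 and 4 counts in tumours 1 to 4. Dusp5 shares 547 bases with an antisense gene and Spry1 shares 710 with a predicted gene, neither of which has a row in the table. Spry4 spans 2 small RNA genes that share 0 exon bases with it and had 0 counts. The other 6 genes overlap no annotated gene. No further near-identical copy of a member was found in the annotated transcripts.

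Promoter sequence was matched for 6 of the 10 genes in a RefSeq table of starts on GRCm38.p6. Dusp4, Spry4, Etv4 and Fosl1 had no entry. The stretches of the closest pair of genes by pattern (Dusp6 and Spred1), of the 2 Sprouty genes that fell furthest in tumour 3 and of Dusp5, where a searched motif was found, are shown 5′ to 3′. Each ends at the base before the start, and that of Dusp5 ends earlier, before the first exon of the other annotation used. Capitals mark CArG boxes, the motif bound by serum response factor.
Dusp5, chr19:53528895-53529108, plus strand: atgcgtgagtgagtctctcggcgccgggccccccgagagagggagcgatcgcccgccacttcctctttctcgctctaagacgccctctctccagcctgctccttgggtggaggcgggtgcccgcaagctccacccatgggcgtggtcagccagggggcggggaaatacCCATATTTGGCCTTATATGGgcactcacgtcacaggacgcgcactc
Dusp6, chr10:99262981-99263230, plus strand: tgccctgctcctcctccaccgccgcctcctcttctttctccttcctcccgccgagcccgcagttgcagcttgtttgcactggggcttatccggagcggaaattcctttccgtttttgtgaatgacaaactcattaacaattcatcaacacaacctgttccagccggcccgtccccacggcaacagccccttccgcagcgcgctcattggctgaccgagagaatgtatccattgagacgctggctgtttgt
Spred1, chr2:117120821-117121070, plus strand: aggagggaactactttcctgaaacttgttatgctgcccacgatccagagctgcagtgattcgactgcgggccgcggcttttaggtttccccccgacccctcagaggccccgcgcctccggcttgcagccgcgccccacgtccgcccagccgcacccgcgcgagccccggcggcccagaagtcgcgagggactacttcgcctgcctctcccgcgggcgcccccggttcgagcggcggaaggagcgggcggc
Spry1, chr3:37639697-37639946, plus strand: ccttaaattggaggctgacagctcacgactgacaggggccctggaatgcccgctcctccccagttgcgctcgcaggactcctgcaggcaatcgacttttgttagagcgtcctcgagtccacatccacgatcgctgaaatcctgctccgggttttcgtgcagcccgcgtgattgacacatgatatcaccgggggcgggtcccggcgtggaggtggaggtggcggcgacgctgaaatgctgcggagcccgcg
Spry2, chr14:105896820-105897069, minus strand: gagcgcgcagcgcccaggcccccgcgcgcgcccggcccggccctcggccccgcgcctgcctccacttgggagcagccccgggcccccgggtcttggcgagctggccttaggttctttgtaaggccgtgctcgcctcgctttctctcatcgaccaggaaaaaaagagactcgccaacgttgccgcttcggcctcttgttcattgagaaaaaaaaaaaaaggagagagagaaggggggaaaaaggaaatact

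Motifs of 4 kinds were searched on both strands of windows from 250 bases before to 50 bases after each start. An Ets site (CCGGAAG) was in 0 of the 6 windows against 8.86% of all 32851 windows, an AP-1 site (TGANTCA) in 0 against 7.81% and a cyclic AMP response element (TGACGTCA) in 0 against 1.79%. A CArG box was in 1 of 6 windows, that of Dusp5, against 1.63% of all windows. Dusp5 holds 2 of them side by side, at -82 to -73 and at -72 to -63 from the start. A match is only a description of these letters, and its absence says nothing of the factors or of sites elsewhere.

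Dusp6 was the most abundant of the phosphatase genes. Tumours 1 to 4 had 262, 341, 254 and 322 CPM of it (mean 295 ± 43.3, SD, n = 4). Tumours 2 and 4 were high and tumours 1 and 3 low, with the 95% Poisson intervals of tumour 3 (243 to 265 CPM) and tumour 1 (252 to 273 CPM) overlapping. The highest tumour was 1.34-fold the lowest.

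Dusp4 had CPM of 50.2, 54.9, 42.2 and 44.4 in tumours 1 to 4 (mean 47.9 ± 5.77, SD, n = 4). It varied least of the 10 genes, with an SD of log2 CPM of 0.17, and the intervals of the low tumours 3 and 4 overlapped. Dusp5 had CPM of 19.9, 30.0, 17.0 and 24.0 (mean 22.7 ± 5.61, SD, n = 4). Its highest tumour, tumour 2, was 1.76-fold its lowest, tumour 3, and the interval of tumour 3 overlapped that of tumour 1.

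Spry1 and Spry2, which curb receptor tyrosine kinase signalling, had similar levels and the same low tumour. Spry1 was at 83.8, 92.6, 53.8 and 109.5 CPM in tumours 1 to 4 (mean 84.9 ± 23.3, SD, n = 4). Spry2 was at 86.0, 81.3, 45.8 and 102.9 CPM (mean 79.0 ± 24.0, SD, n = 4). Tumour 4 was the highest for both genes, 2.03-fold above tumour 3 for Spry1 and 2.25-fold above it for Spry2. The interval of tumour 3 lay below those of the other 3 tumours for both. Among the other 3 tumours the highest was 1.31-fold the lowest for Spry1 and 1.26-fold for Spry2.

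Spry4, the third Sprouty gene, followed another pattern. It was at 31.1, 38.7, 23.2 and 25.5 CPM in the 4 tumours in turn (mean 29.6 ± 6.90, SD, n = 4). Tumour 2 was the highest, and tumour 4, the highest for the other 2 Sprouty genes, was close to tumour 3 for Spry4, with overlapping intervals.

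Spred1 had the highest read count of the 10 genes. It reached 484, 657, 470 and 641 CPM in the 4 tumours in turn (mean 563 ± 99.6, SD, n = 4). As with Dusp6, tumours 2 and 4 were high and tumours 1 and 3 low, and the intervals of tumour 3 (455 to 485 CPM) and tumour 1 (470 to 499 CPM) overlapped. Spred2 was lower, with CPM of 66.1, 62.0, 35.9 and 54.8 (mean 54.7 ± 13.4, SD, n = 4). Its tumour 1 was the highest, at 1.84-fold tumour 3, whose interval lay below those of the other tumours.

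Etv4 had CPM of 55.7, 54.2, 39.6 and 49.4 in tumours 1 to 4 (mean 49.7 ± 7.26, SD, n = 4). Tumours 1, 2 and 4 lay within 1.13-fold of each other, and the interval of tumour 3 was below theirs. Fosl1 was the only member near the limit of detection, with 31, 12, 2 and 28 counts, or 3.41, 1.39, 0.247 and 3.33 CPM. Tumour 3 was at or under 3 counts, so its level is compared by the ratio of counts with an exact interval for counting error only. Tumour 1 was 13.8-fold tumour 3 (95% interval 3.52 to 119), tumour 4 was 13.5-fold (3.40 to 117) and tumour 2 was 5.65-fold (1.26 to 52.0). Mean CPM (2.10 ± 1.55, SD, n = 4) placed Fosl1 above 8.22% of the genes tested, and Spred1 above 98.8% of them. The level of Fosl1 is uncertain where the counting ignored strand, because most of its exon bases are shared with Ccdc85b.

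**Figure D1:**
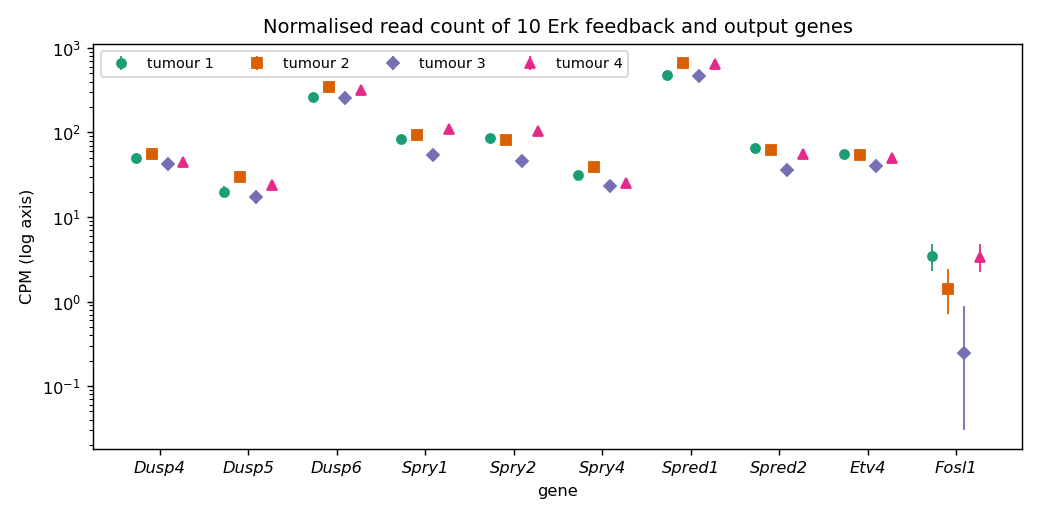
Normalised read count (CPM, log axis) of each gene in the 4 tumours, 1 symbol per tumour, with 95% Poisson intervals for counting error, which are smaller than the symbols for most genes. Tumour 3 is the lowest point for every gene, and Fosl1 lies far below the others, at 0.247 CPM in tumour 3.

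Transcript levels of different genes were compared within each tumour as CPM per kilobase of exons. On that scale Dusp6 came first, with a mean level of 94.1 ± 13.8 (SD, n = 4) CPM per kb, followed by Spred1 with 83.0 ± 14.7, because the exons of Spred1 are longer. Spry2 (37.9 ± 11.5), Spry1 (29.2 ± 8.03), Dusp4 (17.5 ± 2.10) and Etv4 (16.0 ± 2.34) came next. Spred2 (11.9 ± 2.90), Dusp5 (9.19 ± 2.27), Spry4 (6.23 ± 1.45) and Fosl1 (1.03 ± 0.760) were the lowest. The abundant feedback transcripts thus included 1 phosphatase gene, 1 Spred gene and 2 Sprouty genes, and both transcription factor genes came below these.

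The order held in each tumour for all 9 pairs of neighbours. It was set by the means of these same 4 tumours, so the agreement is in part built in. Counting error was not set against these steps. The narrowest step was Dusp4 over Etv4, with a log2 difference of the level per kilobase of 0.13 ± 0.12 (SD, n = 4) and single values of 0.03, 0.20, 0.27 and 0.03 in tumours 1 to 4. Dusp6 over Spred1 differed by 0.19 ± 0.05 and the widest step, Spry4 over Fosl1, by 3.04 ± 1.54. Flipping the signs of these differences over the 4 tumours (exact permutation test, two-sided) gave p 0.125 for each pair, the smallest value that 4 tumours allow, so no pair could pass 0.05. With lengths from the longest annotated transcript the order was set anew, and 9 of 9 neighbours in it kept 1 sign in all tumours. That order was not the same, since Etv4 (2395 nt in place of 3104 nt) came above Dusp4 (2740 nt by both). In the order of CPM with no division by length, 6 of 9 neighbours kept 1 sign.

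**Figure D2:**
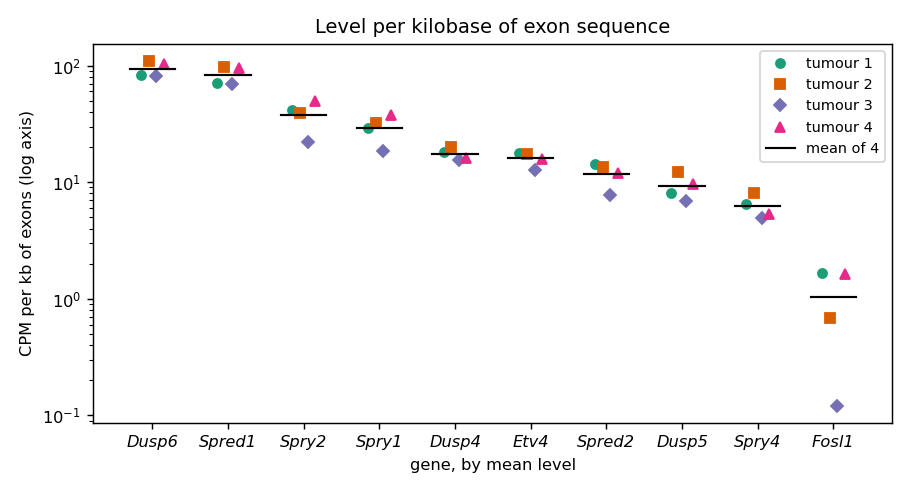
CPM per kilobase of summed exon length (log axis) for each gene, ordered by mean, with 1 symbol per tumour and a line at the mean of the 4 tumours. Means run from 94.1 for Dusp6 to 1.03 for Fosl1.

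Whether the tumours differed was asked gene by gene with a chi-square statistic that sets the counts against Poisson noise, adjusted by Benjamini-Hochberg over the 14225 genes. All 10 members varied by more than counting noise, as did 76.7% of all genes tested, so passing this test does not set the members apart. Adjusted p ran from 5.43e-96 for Spred1, the gene with most reads, to 0.000938 for Dusp4. The SD of log2 CPM over the tumours, which depends less on read number, was between 0.17 (Dusp4) and 1.64 (Fosl1), with a median of 0.34 over the members and 0.29 over all genes tested. The highest tumour was at least 2-fold the lowest for 3 of 10 members (Spry1, Spry2 and Fosl1), against 28.1% of all genes. Leaving out tumour 2 ended the call for Dusp4 (adjusted p 0.0548), and leaving out tumour 3 ended it for Etv4 (adjusted p 0.221).

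All 10 genes had their lowest level in tumour 3, a pattern noticed in these data. Over all genes tested 32.5% were lowest in tumour 3, and the other tumours were lowest for 30.4% (tumour 1), 19.4% (tumour 2) and 17.7% (tumour 4). Genes that were both lowest in tumour 3 and varied beyond counting noise made up 26.5% of all genes. For 4 of 10 members (Spry1, Spry2, Spred2 and Etv4) the Poisson interval of tumour 3 lay below those of the other 3 tumours, against 10.6% of all genes. The ratio of the next lowest tumour to tumour 3 had a 95% counting interval above 1 for these 4 and for Fosl1. For Dusp4, Dusp5, Dusp6, Spry4 and Spred1 the interval included 1, so the lowest rank of tumour 3 rests on gaps within counting error for these 5. The genes respond to 1 pathway and are not independent of each other, so the count of 10 is not a set of 10 separate observations.

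Tumour 3 was lower than the mean of the other tumours by 0.97 on the log2 scale for Spry2, by 0.82 for Spry1, by 0.76 for Spred2 and by 0.51 for Dusp5. The drop was smaller for Spry4 (0.43), Etv4 (0.42), Spred1 (0.33), Dusp6 (0.27) and Dusp4 (0.23). In CPM this was a level lower by 49.2% for Spry2 and by 15.3% for Dusp4. The median log2 difference over the 10 members was -0.47, and over all genes tested it was -0.02. A difference of at least 1.5-fold on this scale was found for 4 of 10 members (Spry1, Spry2, Spred2 and Fosl1) and for 13.3% of all genes. No tumour stood apart for any member by Dixon's ratio, against 5.86% of all genes.

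**Figure D3:**
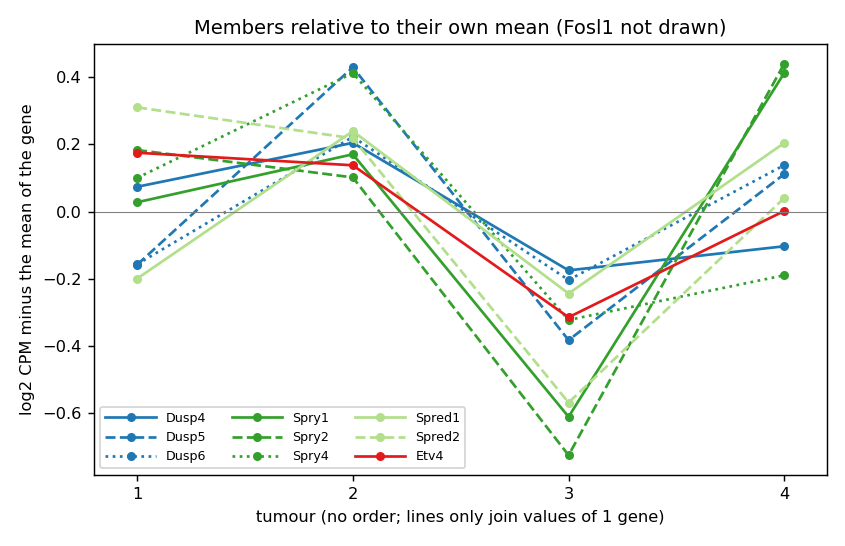
Log2 CPM of 9 genes in each tumour minus the mean of that gene over the 4 tumours. Lines only join the values of 1 gene, and Fosl1 is not drawn because 2 counts in tumour 3 put it off the scale. Every line is lowest at tumour 3, most so for Spry2, and the lines part at tumours 1 and 4.

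The tumour with the highest level was not shared. Tumour 2 was the highest for 5 members (Dusp4, Dusp5, Dusp6, Spry4 and Spred1), tumour 1 for 3 (Spred2, Etv4 and Fosl1) and tumour 4 for 2 (Spry1 and Spry2). Tumour 3 was the highest for 0 members. Of all genes tested, tumours 1, 2, 3 and 4 were the highest for 31.4%, 20.4%, 30.2% and 18%. Only for Spry1 and Spry2 did the Poisson interval of the highest tumour lie above those of all other tumours. For the other members the highest rank rests on gaps within counting error. Spry4 parted from Spry1 and Spry2, since its interval in tumour 4 lay below that in tumour 2. Spred1 and Spred2 also had different highest tumours, but the intervals of tumours 1 (60.9 to 71.6 CPM) and 2 (56.9 to 67.5 CPM) overlapped for Spred2. Leaving out tumour 2 gave 5 members with their highest level in tumour 1 and 5 in tumour 4.

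**Figure D4:**
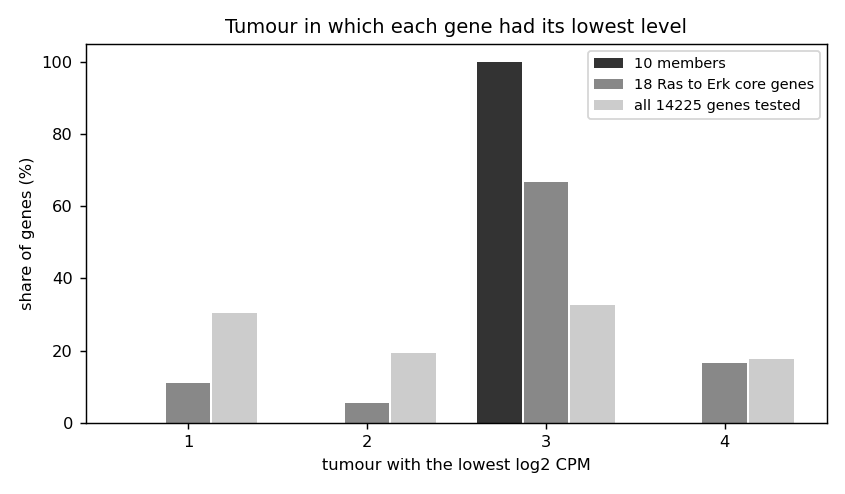
Share of genes (%) whose lowest log2 CPM was in each tumour, for the 10 members, the 18 Ras to Erk core genes and all 14225 genes tested. The bar of the members is at 100% in tumour 3, where all genes reach 32.5%.

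Likeness of pattern was measured as the root mean square difference of log2 CPM, centred on the mean of each gene, over the 4 tumours. Dusp6 and Spred1 were the closest of the members, at 0.045, although one encodes a phosphatase and the other a membrane inhibitor of Ras to Raf signalling. Spry1 and Spry2 followed at 0.10, and Dusp4 and Etv4 at 0.11. Spry2 and Spry4, of the same family, were the farthest apart of the 9 genes compared, at 0.41. Fosl1 was not included because of its low counts.

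Many genes match a pattern over only 4 tumours, so the closest of the 10268 others are given as a description. The genes nearest to Spry2 were Bmp4, Dbt and Jag1, with Bmp4 at 207, 203, 120 and 254 CPM in tumours 1 to 4 and a distance of 0.046. Those nearest to Spry1 were Paqr4, Gm15793 and Exosc4, and those nearest to Spry4 were Marcks, Mtfmt and Rpn1. For Dusp6 they were Ercc6, Ptpn9 and Prrc2c, for Spred1 Fam83e, Arhgef25 and Atp7b, and for Dusp4 Amacr, Hsd17b7 and Iah1. For Dusp5 they were Tmem260, Atp6v0a2 and Lrp6, for Spred2 Qtrt1, Drosha and Por, and for Etv4 Psme2b, Slc39a3 and Nf1. Nf1, which encodes neurofibromin, had 73.7, 73.5, 52.6 and 64.6 CPM, at a distance of 0.018 from Etv4.

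Genes of the cascade itself had a smaller median spread. Of 18 genes from Ras regulators to Erk, 16 varied beyond counting noise, with a median SD of log2 CPM of 0.18 against 0.34 for the members. Tumour 3 was the lowest for 12 of the 18, and their median log2 difference between tumour 3 and the others was -0.14 against -0.47. The difference between the lists was not tested. Of all genes tested, 76.7% varied beyond counting noise and 32.5% were lowest in tumour 3. These shares also stand beside the counts of the lists below. Mapk3, which encodes Erk1, was the most abundant, with CPM of 307, 308, 282 and 315 in tumours 1 to 4 (mean 303 ± 14.6, SD, n = 4). Nras varied most, with 244.5, 152, 119 and 173 CPM (mean 172 ± 53.2, SD, n = 4).

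Receptors and ligands that feed the cascade varied more. Of the 16 tested, 15 varied beyond counting noise and 7 were lowest in tumour 3. Fgfr2, a receptor for fibroblast growth factors, was the most abundant, at 352, 634.5, 333 and 605 CPM in tumours 1 to 4 (mean 481 ± 161, SD, n = 4). It was high in tumours 2 and 4 and low in tumours 1 and 3, as Dusp6 and Spred1 were. Hgf, the ligand of Met, varied most, at 7.26, 18.6, 2.35 and 2.50 CPM.

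Other members of the phosphatase and Sprouty families divided. Among the other 7 MAP kinase phosphatase genes 6 varied beyond counting noise and 5 were lowest in tumour 3. Dusp16 was the most abundant at 166, 223, 155 and 223 CPM, and Dusp9 varied most at 35.4, 12.3, 9.63 and 15.1 CPM. Both act on MAP kinases, Dusp9 on Erk and Dusp16 mainly on Jnk and p38. Spred3 had 15.1, 18.7, 15.4 and 21.4 CPM and was lowest in tumour 1. Spry3 had 0 counts in all tumours, which allows up to 0.330 to 0.370 CPM.

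Other Erk outputs were divided in tumour 3, as genes in general were. Of 13 such genes 12 varied beyond counting noise, 4 were lowest in tumour 3 and 4 were highest there. Both counts in tumour 3 are near the shares of all genes tested, 32.5% lowest and 30.2% highest. Ccnd1, which encodes cyclin D1, was the most abundant, at 424.5, 370, 485.5 and 387 CPM, with its highest level in tumour 3. Hmga2, an oncofetal chromatin protein, varied most, at 5.50, 16.5, 2.35 and 7.49 CPM, and was lowest in tumour 3. Etv5, the close relative of Etv4, named here after its values were seen, had 147, 224, 261 and 235 CPM and was highest in tumour 3, the opposite of Etv4. Etv5 is also a gene of alveolar type 2 cells and is in that marker list too.

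Of 8 other feedback inhibitors 7 varied beyond counting noise and 1, Il17rd, was lowest in tumour 3, at 11.2, 23.8, 7.28 and 9.28 CPM. It encodes Sef, an inhibitor of Ras and Erk signalling, and it also varied most of the list. Errfi1, which encodes an inhibitor of the EGF receptor family, was the most abundant and was highest in tumour 4, at 250.2, 260.1, 282 and 347 CPM. Cells were dissociated before RNA was extracted, and immediate-early genes, many of which Erk induces, can rise in that step. Of 14 such genes 13 varied beyond counting noise, 5 were lowest in tumour 3 and 8 were highest in tumour 1. The share of all genes tested that were highest in tumour 1 was 31.4%. Btg2 was the most abundant at 188, 158, 144 and 168 CPM, and Fosb varied most at 1.76, 0.581, 1.60 and 1.55 CPM.

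Several lists of cell type markers were highest in tumour 3, where the members were lowest. Of all genes tested 30.2% were highest there. The summed CPM of 4 pan-leukocyte markers was 104, 124, 252 and 144 in tumours 1 to 4, with 4 of 4 highest in tumour 3, and Ptprc, which encodes CD45, was at 83.4 CPM there against 26.2 to 38.5. Macrophage markers were highest in tumour 3 for 5 of 5 genes, with sums of 111, 125, 235 and 141 CPM, and endothelial markers for 4 of 6, with sums of 200.5, 208, 277 and 209 CPM. The 7 T cell markers, of which 3 passed the filter, summed to 3.19, 4.99, 21.6 and 4.04 CPM. Smooth muscle and pericyte markers (3 of 4 highest in tumour 3), neutrophil markers (2 of 4), fibroblast markers (2 of 6) and alveolar type 1 markers (3 of 5) were highest in tumour 3 in part of each list. The only B cell marker of 4 that passed the filter was highest in tumour 4. At 0 counts in any tumour was 1 marker of these lists, Cd4, in tumour 4. The part of these cells in the levels of the members was not tested.

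Epithelial markers gave a divided answer. Epcam was lowest in tumour 3, with 600, 470, 218 and 371 CPM in tumours 1 to 4, whereas Cdh1, which encodes E-cadherin, was at 842, 888, 846 and 876 CPM. Krt8 and Krt18 were high in tumour 1 (1261 and 1269 CPM) and between 589 and 753 CPM in the others. Alveolar type 2 markers, including Etv5, were lowest in tumour 1 for 6 of 8 and in tumour 3 for 2 of 8, and proliferation markers were lowest in tumour 4 for 6 of 6.

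On a scale relative to the mean log2 level of the 4 epithelial markers, an alternative chosen after seeing the data, 3 of 10 members were lowest in tumour 3 (Spry2, Spred2 and Fosl1), against 9.83% of all genes. The other 7 were lowest in tumour 1, where the scale lowers every gene because its markers were high there. The low mean of the markers in tumour 3 came mostly from Epcam. Its log2 difference from the other tumours was -1.12, against -0.20 for Krt8, -0.18 for Krt18 and -0.04 for Cdh1. On this scale the median log2 difference between tumour 3 and the others was -0.09 over the members and 0.37 over all genes tested. Without it the medians were -0.47 and -0.02. On this scale 10 of 10 members were still lower in tumour 3 than in tumour 2 and 8 of 10 were lower than in tumour 4, but only 3 of 10 were lower than in tumour 1, whose epithelial mean was 0.78 above that of tumour 3 on the log2 scale. The lowest rank of tumour 3 against tumour 1 therefore depends on the scale for most of the genes.

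**Figure D5:**
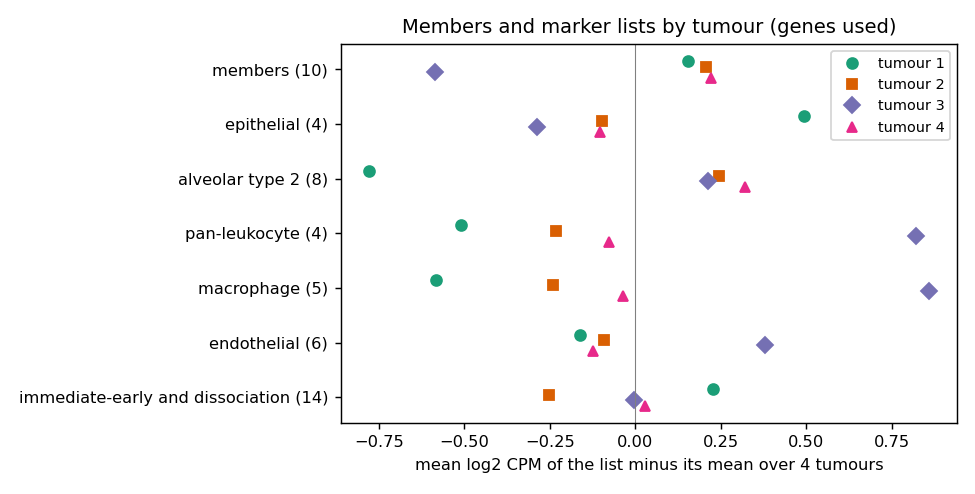
Mean log2 CPM of the members and of 6 lists in each tumour, minus the mean of the list over the 4 tumours, with the number of genes used in brackets. By these means tumour 3 is lowest for the members and for epithelial markers and highest for pan-leukocyte, macrophage and endothelial markers. Tumour 1 is highest for epithelial markers. Of the 4 epithelial markers only 1, Epcam, was lowest in tumour 3. The members include Fosl1, whose 2 counts in tumour 3 lower their mean there. The mean log2 difference of tumour 3 from the others was -0.78 over the members, and the median was -0.47.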

How the data were processed

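Single-end reads of 85 nt from stranded polyA libraries (NextSeq 500, RNA quality above 7) were trimmed with Cutadapt and aligned to mm10 with HISAT2 by the authors. The submitters' processing notes also name bcl2fastq 2.17, cutadapt 1.4.2 and featureCounts 1.4.4; annotation release and strand setting are not given in the sources used here. The authors deposited raw counts per Ensembl gene, with no normalization. They also deposited log2 normalised values (TMM and voom in their methods), used here only as an alternative. The combined and single tables held equal counts in 156068 of 156068 values.

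Counts were scaled to total counts times TMM factors (edgeR 4.0.16, R 4.3.3), giving CPM, and log2 CPM was taken with 0.5 added to each count. The filter was a mean CPM of 1 or more. For the spread between tumours, observed counts were set against Poisson expectations in a chi-square test (3 degrees of freedom, adjusted p under 0.05). It was tried only on simulated Poisson counts, the model that the test assumes. Calls that arise from technical variation beyond Poisson were therefore not assessed. Intervals are exact Poisson intervals at 95% and cover counting error only, since reads carried no molecular identifiers. A tumour apart was called by Dixon's ratio. Positions, exon lengths and overlaps came from GENCODE M21, copies (at least 80 nt at 97% identity) from BLAST 2.17.0, and upstream sequence from RefSeq. All 152 list genes were matched, 151 by symbol and 1 by identifier. From each pathway list the gene with the highest mean CPM and that with the largest SD of log2 CPM were named, and for each member with a mean CPM of at least 10 the 3 genes of nearest pattern.

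Alternatives were DESeq2 1.42.0 size factors, total counts alone, other filters, another added count, other lengths, the log2 table and leaving out each tumour. The members and lists were chosen with earlier results of these data known. The count of lowest levels in tumour 3 and the epithelial scale were chosen after seeing the data.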

Additional observations from a re-analysis of the deposited data

Results flagged for a closer look

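Of 29 values (10 members and 19 summed lists), 2 had a tumour far from the others, where chance gives 1.45. The summed CPM of the 4 epithelial markers was 3970 in tumour 1, far above the 2488 to 2632 of the other tumours. The summed CPM of the 6 endothelial markers was 277 in tumour 3, far above the 200.5 to 209 of the others. None of the 10 members had such a tumour. What produced either value was not tested.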

How the results depend on the processing

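Of 145 values recomputed under the alternatives, 140 stayed within the limits set for a change and 5 moved. The limit was 1.5-fold for 85 of them, which include the 5 that moved. For the other 60, the mean CPM of single members, it was 1 SD between tumours. Leaving out 1 of 4 tumours can hardly move a mean that far, so these values say little about stability. Some of the 85 were also all but fixed in advance. A gene lowest in tumour 3 stays so when another tumour is left out. Dropping the filter left the members and their log2 values unchanged, so their median SD could not move. The median SD of log2 CPM over the members was between 0.20 and 0.40 when 1 tumour was left out. The lowest of these, 0.20, was without tumour 3. Members with their highest level in tumour 1 numbered 3 to 5, and in tumour 4 they numbered 2 to 5, when 1 tumour was left out. Relative to the epithelial markers 0 members were highest in tumour 1 and 3 were lowest in tumour 3. For the counts by tumour the moves follow from the construction of the alternatives (fewer tumours, or a scale set by markers that were high in tumour 1).

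Leaving out 1 tumour gave 8807 to 10244 genes that varied beyond counting noise in place of 10905, with 9 or 10 members among them (Dusp4 lost without tumour 2, Etv4 without tumour 3). With no filter 11323 of 21175 genes varied, and at a mean CPM of at least 10, where Fosl1 drops out, 8756 of 10269 did. Normalization by DESeq2 size factors or total counts kept the count of members that varied at 10. No paired analysis was possible because the 4 tumours form 1 group. Depth limits Fosl1 in tumour 3 (2 counts) and Spry3 (0 counts), and with 4 tumours no order of levels could reach p 0.05.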
